A study of Mus musculus with 2 samples.

Results

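The genes described here are 10 genes for proteins that the fetal liver makes for the plasma: *Afp*, *Alb*, *Ttr*, *Trf*, *Rbp4*, *Apoa1*, *Apoa2*, *Apob*, *Fgb* and *Ahsg*. They were chosen by symbol, and all 10 were found among the 27998 genes of the matrix. They were measured by CITE-seq, in which RNA and barcoded surface antibodies are counted in each single cell. The cells were fetal liver cells of C57BL/6 mouse embryos at e13.5, pooled from several embryos, and the labels give no genetic change or drug treatment. The Ter119- and Ter119+ fractions, the latter holding the maturing erythroid cells, were separated magnetically and mixed in equal parts. The share of any cell type in the data was therefore set in part by the preparation. There was 1 cDNA library and 1 antibody library of the same cells, so there was no replicate and no test was possible. Intervals in brackets are 95% intervals and cover counting error only.

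The matrix held 7863 cells with a median of 5707 unique molecular identifiers (UMIs, 1 for each captured transcript), from 2510 to 38047, and all 7863 barcodes were shared with the antibody library. After the filters on genes, mitochondrial UMIs and doublets, 7244 cells remained. Cells in which *Afp*, *Apoa1* and *Rbp4* together made up at least 1% of the UMIs were called hepatocyte-like, which gave 192 of the 7244 cells. The other 7052 cells were taken as the background. Levels are means over cells of UMIs per 1000000 UMIs of the cell (CPM). Their intervals are those of the summed UMIs scaled to the mean, so they may be too narrow. In the paragraphs on other gene lists and on markers of other cell types, levels are instead pooled CPM. Pooled CPM is taken from the UMIs summed over the cells of a group. The 3′ protocol counts 1 tag for each transcript, so levels of different genes can be compared without a correction for length.

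Hepatoblasts and fetal hepatocytes line the cords in which fetal liver erythropoiesis takes place. Liver-enriched transcription factors of the HNF1, HNF4, FOXA and C/EBP families drive their genes for plasma proteins, and the products leave the cell through the secretory pathway. *Afp*, the gene for α-fetoprotein, is a classical marker of this stage and is silenced after birth, whereas *Alb*, the gene for serum albumin, remains active throughout life.

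*Alb* and *Afp* are neighbours of common descent. In RefSeq on GRCm38.p6, the build that the submitters call mm10, *Alb* lies at chr5:90460870-90476602 and *Afp* at chr5:90490714-90508907, with 14111 bases between them. *Fgb*, the gene for the fibrinogen β chain, lies at chr3:83042246-83049863. The 150 bases before the start of these 3 genes are shown because each holds the half-site GTTAAT of the HNF1 factors, read on either strand (ATTAAC) and printed in capitals. The sequences are from RefSeq, run 5′ to 3′ on the strand of the gene, and cover chr5:90490564-90490713 on the plus strand for *Afp*, chr5:90460720-90460869 on the plus strand for *Alb* and chr3:83049864-83050013 on the minus strand for *Fgb*.
Afp: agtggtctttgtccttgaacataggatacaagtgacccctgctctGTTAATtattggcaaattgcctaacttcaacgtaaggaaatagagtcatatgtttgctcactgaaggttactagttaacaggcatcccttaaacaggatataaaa
Alb: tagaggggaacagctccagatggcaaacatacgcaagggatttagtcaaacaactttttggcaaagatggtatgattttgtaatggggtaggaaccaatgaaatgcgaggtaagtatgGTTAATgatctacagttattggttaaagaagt
Fgb: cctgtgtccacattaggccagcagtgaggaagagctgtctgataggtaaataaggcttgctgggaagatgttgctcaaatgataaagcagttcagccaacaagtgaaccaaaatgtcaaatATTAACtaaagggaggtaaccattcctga
Of the 10 genes, 8 had a promoter window in the RefSeq table, with 10 windows in all. The half-site was present in the 250 bases before the start in 3 of these 10 windows (*Afp*, *Alb* and *Fgb*), and in 6.43% of all 32851 windows. The letters TATAAA, or TTTATA on the other strand, were present in 4 windows, of *Afp*, *Apoa2*, *Apob* and *Rbp4*, and in 12.4% of all windows. A match is a description of the letters and not evidence of a bound site.

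*Ttr* lies on chromosome 18. The remaining genes lie apart from these on the same build: *Rbp4* at chr19:38116620-38125321, *Apoa1* at chr9:46228630-46230469, *Apoa2* at chr1:171221564-171226379, *Apob* at chr12:7977629-8016839, *Trf* at chr9:103208876-103230286 and *Ahsg* at chr16:22892015-22899451.

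*Afp*, *Apoa1* and *Rbp4* chose the cells, and their levels there are a description. In the 192 hepatocyte-like cells the 10 genes together made up from 1.61% to 20.2% of the UMIs of a cell, with a median of 9.97%. These cells were deep, with 12969 UMIs in the median cell, whereas the median other cell had 5721. Summed over the cells, 9.70% of their UMIs were of these 10 genes.

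*Afp* was the most abundant of the 10, with a mean of 29928 CPM (29702–30154), a lowest cell of 2781, a median of 29761 and a highest cell of 63230. *Alb* followed with a mean of 18691 CPM (18511–18872), a lowest cell of 1738, a median of 17181 and a highest cell of 42766. The interquartile range was 24739 to 35116 CPM for *Afp* and 12700 to 24344 CPM for *Alb*, so these ranges did not overlap.

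Among the carriers of small molecules, *Rbp4*, which encodes the plasma carrier of retinol, was at 14489 CPM (14330–14648). Its cells ranged from 2423 to 27104 CPM. *Ttr*, the gene for transthyretin, which carries thyroxine and holds the retinol carrier in the circulation, was at 9194 CPM (9064–9325), with cells from 519 to 25555 CPM. *Trf*, the gene for the iron carrier transferrin, was at 4598 CPM (4509–4689), with cells from 494 to 17184 CPM. All 3 were detected in all 192 cells.

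Of the apolipoproteins, *Apoa1* and *Apoa2*, which encode the main proteins of high-density lipoprotein, were at 10856 CPM (10717–10996) and 9593 CPM (9462–9725). *Apob*, for the large protein that frames low-density and very low-density lipoprotein, was the lowest of the 10 at 616 CPM (584–649). Its highest cell had 1978 CPM, and 184 of the 192 cells had a UMI. *Fgb* was at 2053 CPM (1993–2114) and was detected in all 192 cells. *Ahsg*, the gene for fetuin-A, an inhibitor of mineral deposition, was at 1388 CPM (1337–1439) and was detected in 189 of them. After each cell was thinned to 2000 UMIs, *Apob* had a UMI in 72.9% of the hepatocyte-like cells and in 0.737% of the other cells, and *Ahsg* in 83.3% and 1.45%.

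**Figure D1:**
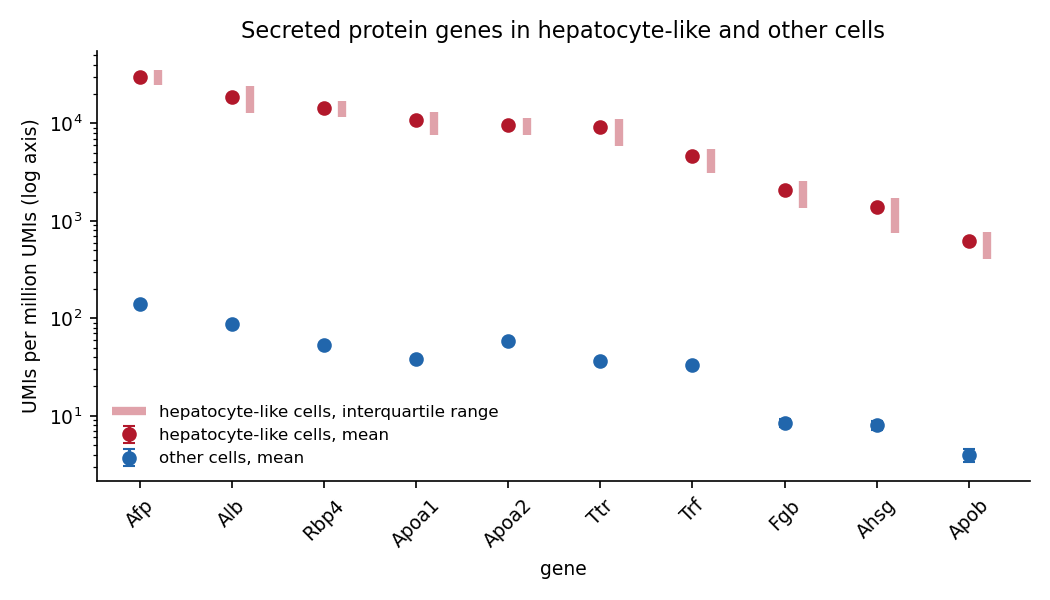
Mean level of the 10 genes (points, CPM, log axis) in hepatocyte-like cells (red) and in the other cells (blue). The 95% Poisson intervals of the summed UMIs, scaled to the mean, are often smaller than the points. The red bars span the interquartile range of the hepatocyte-like cells. From *Afp* (29928 against 141 CPM) to *Apob* (616 against 3.93 CPM), each gene stood at least 140 times higher in hepatocyte-like cells.

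The genes differed in how evenly they were expressed. *Rbp4* varied least, with a coefficient of variation over cells of 0.284, where counting alone would give 0.0912. *Afp* and *Apoa2* followed at 0.319 and 0.331. *Ahsg* varied most, at 0.695 against 0.307 from counting, and its median of 1068 CPM lay below its mean. For *Apob* the coefficient was 0.541 against the 0.440 that counting gives at its low level, so counting made up much of its spread but not all of it. *Afp*, *Apoa1* and *Rbp4* set which cells were included, and the part of that choice in this order was not tested.

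Across the 192 cells thinned to 2000 UMIs, the genes varied together. The Pearson correlation of log(count + 1) was above 0 in each of the 45 pairs, from 0.17 to 0.80 with a median of 0.46. The highest was that of the neighbours *Afp* and *Alb* (0.80), followed by *Alb* with *Apoa1* (0.73) and *Alb* with *Ttr* (0.71). *Afp* and *Alb* also had the highest levels of the set, and the part of level in the order of the pairs was not tested. The pairs of *Apob*, which had a mean of only 1.29 UMIs per thinned cell, were among the lowest. Without *Apob* the lowest pair was *Rbp4* with *Fgb* (0.29). All points come from 1 library, and *Afp*, *Apoa1* and *Rbp4* also set which cells were included.

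**Figure D2:**
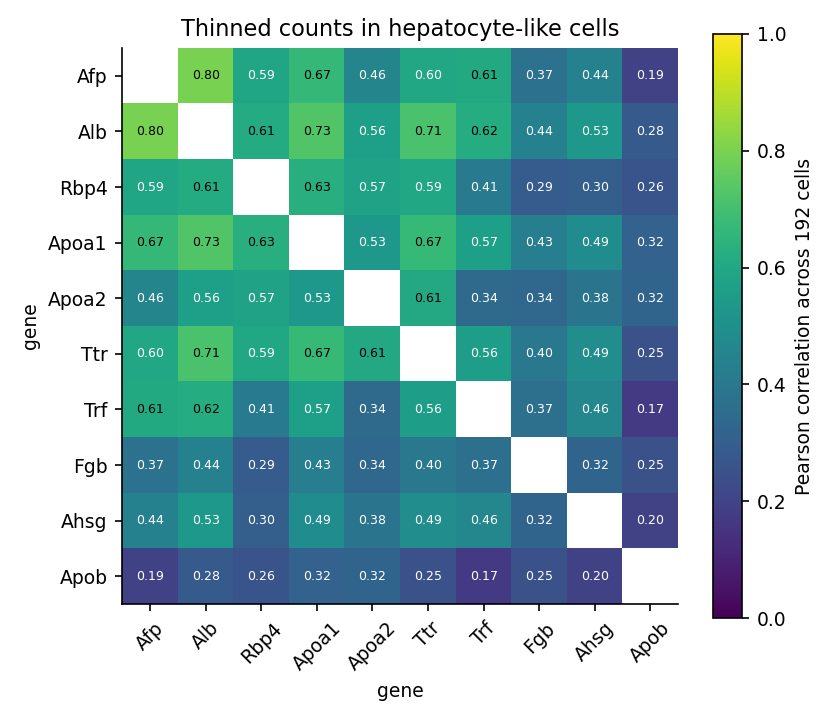
Pearson correlation of thinned counts (log of count + 1) between each pair of the 10 genes (both axes, ordered by level) across 192 hepatocyte-like cells, with colour from 0 to 1. *Afp* and *Alb* reach 0.80 and *Apob* has the lowest value in each column.

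Genes outside the set whose counts followed the summed *Alb*, *Ttr*, *Trf*, *Apoa2*, *Apob*, *Fgb* and *Ahsg* most closely were sought among 1022 genes. *Apom*, an apolipoprotein, reached 0.64, *Apoe* 0.60 and *Serpina1b*, an α1-antitrypsin gene, 0.57. Of the genes in none of the lists used here, *Spp2* was at 0.48, *Ttc36* at 0.39, *Cpb2*, a carboxypeptidase of fibrinolysis, at 0.38, the mitochondrial gene *mt-Co1* at 0.37 and *Aadac* at 0.34. The lowest values, named after they were seen, were those of *Ptma* (-0.45), *Npm1* (-0.41) and the ribosomal protein gene *Rpl8* (-0.40). Each cell was thinned to the same total of 2000 UMIs, so more UMIs of the set left fewer for other genes. The summed level of the 10 genes had a correlation of -0.16 with log depth and 0.26 with the mitochondrial share, and *Apoa2* and *Ttr* had -0.38 and -0.31 with log depth. The part of the fixed total, of depth and of mitochondrial share in these correlations was not tested.

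Most hepatocyte-like cells were low in Ter119. Of the 192, 110 fell in the S0-low gate (low lineage antibodies, low Ter119, low CD71), where they made up 7.28% of 1510 cells (6.02–8.71). A further 72 exceeded the limit on the summed lineage antibodies, 28 of them with CD3e leading and 16 with CD41 leading. None of the 898 S4/S5 cells was hepatocyte-like, which allows a share of up to 0.334% by 3 counts of the total and 0.410% by the exact interval. Within the S0-low gate, the 110 hepatocyte-like cells had a median of 15.5 cKit and 16 CD44 antibody counts, against 280 and 165 in the other 1400 cells. CD71, which the gate itself holds low in both, had medians of 68 and 70. Over all stages the CD71 medians were 97.5 in the 192 hepatocyte-like cells and 517 in the other cells. CD45R (18 against 9), CD3e (10.5 against 5) and CD11b (9.5 against 5) had higher medians in the hepatocyte-like cells. So did CD41 (8 against 6), Ly6G/6C (3 against 2) and Ter119 (6 against 4). The non-specific IgG control was counted in 3.64% of these cells and in 1.79% of the other cells of the gate. The hepatocyte-like cells were also deeper in RNA, with 11891 UMIs against 6017. The gate mean depended on these cells: the 10 genes summed to 7923 CPM over all S0-low cells and to 292 CPM (282–303) without the hepatocyte-like cells. Erythroid genes were read in the same cells. In the 160 hepatocyte-like cells of the lowest Ter119 class the globin genes took a median of 0.795% of the UMIs, and in the 13 cells of the highest class 5.45%. The 10 genes had a mean of 104035 CPM in the former and 64010 CPM (62892–65142) in the latter, and whether these 13 droplets held more than 1 cell was not tested.

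The limit of 1% fell in a sparse stretch: 4 kept cells lay from 0.5% to 1% and 6 from 1% to 2%, whereas 107 lay from 5% to 8%. The cell just outside had 0.959% of its UMIs in the 3 genes and 34 *Alb* UMIs of 9281, and the cell just inside had 1.04% and 36 *Alb* UMIs of 11555. A choice by 77 other genes of liver secreted proteins, with no member of the set, at 1% of the UMIs gave 200 cells. Of these, 190 were also chosen by *Afp*, *Apoa1* and *Rbp4*, which is 99.0% of the one set and 95.0% of the other. Of the 10 cells chosen by that list alone, 9 held at least 10 UMIs of the complement genes *C1qa*, *C1qb* and *C1qc*.

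The filter on mitochondrial UMIs removed many hepatocyte-like cells. Among all 7863 deposited cells, 355 passed the 1% limit, and 153 of them (43.1%, 37.9–48.4) had over 9% mitochondrial UMIs. In the remaining 7508 cells that share was 4.37% (3.92–4.86). The 153 cells were shallower, with a median of 6491 UMIs, and the 10 genes summed to 92472 CPM (91927–93019) in them, against 101405 CPM (100984–101827) in the kept cells. *Afp* held 28.1% of the UMIs of the 10 genes (30.3% in kept cells), *Alb* 19.2% (18.5%) and *Ttr* 9.98% (8.62%). The ratio of shares ran from 0.919 for *Rbp4* to 1.19 for *Apob*, and was within counting error of 1 for *Apoa1* and *Fgb* alone. Within the 153 cells the median share of UMIs in the 10 genes was uneven. It was 11.5% at 9% to 12% mitochondrial UMIs (75 cells), 5.31% at 12% to 20% (56 cells) and 9.63% above 20% (22 cells).

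**Figure D3:**
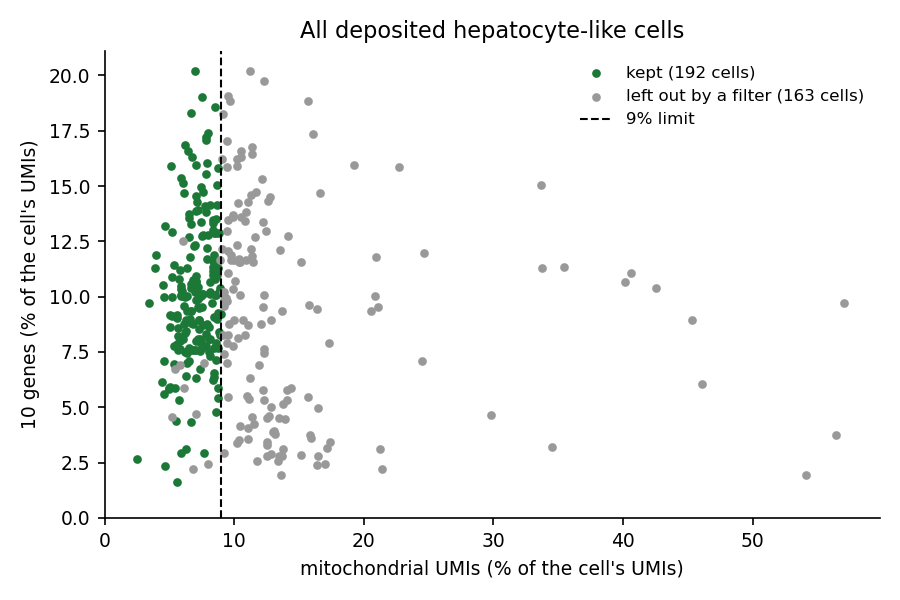
Share of UMIs in the 10 genes (vertical axis, %) against the share in mitochondrial genes (horizontal axis, %) for all 355 deposited cells above the 1% limit. The dashed line is the 9% limit, green points are the 192 kept cells and grey points the cells left out, of which the 153 with over 9% mitochondrial UMIs span 1.94% to 20.2% on the vertical axis.

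The comparison with the other cells shows how far the set stands above the rest of the transcriptome. It is a description, since 3 of the 10 genes define the cells. Of 11238 genes with at least 50 UMIs, 10.6% were at least 2-fold higher in hepatocyte-like cells on the scale of log2(pooled CPM + 10), and 8.64% were at least 2-fold lower, with a median of -0.10. With 10 CPM added to both sides, a gene below 10 CPM in the other cells could not be called lower. All 10 genes were higher, with a median log2 ratio of 7.45. On the mean of CPM per cell, *Apoa1* was 282 times higher than in the other cells (268–296), *Rbp4* 271 times (260–283), *Ttr* 252 times (240–266) and *Fgb* 243 times (219–270). *Afp* and *Alb* were 213 (208–219) and 212 times higher (205–219), *Ahsg* 174 times (156–195), *Apoa2* 163 times (157–170), *Apob* 157 times (134–184) and *Trf* 140 times (133–148). Neighbours in this order overlapped in their intervals, apart from *Fgb* with *Afp* and *Alb* with *Ahsg*, so only the coarse order was resolved. In UMIs per cell the intervals of *Fgb* (383–472) and *Afp* (380–400) overlapped. The ratios depended on the scale: with globin out of the denominator *Rbp4* was 151 times, *Apoa1* 148 times and *Afp* 115 times higher, and in UMIs per cell they were 476, 504 and 390 times higher.

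Other genes of secreted proteins were also higher. Levels in this paragraph and the next 2 are pooled CPM, unless a mean or median over cells is named. The 5 lists held 77 genes of the matrix, of which 55 were measured, with at least 50 UMIs. That limit counted the hepatocyte-like cells, so a gene could pass it through them alone. Of these 55 genes, 51 were at least 2-fold higher, with a median log2 ratio of 4.29 over the 55. They comprised 7 of 7 further apolipoproteins (*Apoe* at 6117 CPM, *Apom* at 4381 CPM), 14 of 15 genes of coagulation (*Fgg*, the fibrinogen γ chain, at 1476 CPM), and 15 of 15 protease inhibitors (*Serpina6*, for the corticosteroid carrier, at 4029 CPM). In the same count were 7 of 9 genes of the list of carriers and binding proteins and 8 of 9 complement genes (*Cfi* at 478 CPM). The former included *Hpx*, for hemopexin, at 735 CPM and *Igf2*, a growth factor gene, at 806 CPM. Other genes of these lists, *Apoc2*, *Apoa4*, *Serpina3k*, *Serpina3n*, *Mup20*, *Mup3*, *Orm1* and *C6*, were at 0 in hepatocyte-like cells. Of the 15 genes outside the set with the largest ratio, 12 were in a list, led by *Serpina6* (log2 ratio 7.37), *Apom* (7.22) and *Serpina1b* (7.03). The imprinted RNA gene *Meg3* (6.61), *Bex2* (6.21) and *Spp2* (6.07) were in none.

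Most of the measured liver transcription factor and secretory pathway genes were higher. Here too the limit of 50 UMIs could be passed through the hepatocyte-like cells alone, which in part sets these counts. *Onecut2*, for example, had 239 UMIs in them and was at 0.403 CPM in the other cells. Of 25 liver transcription factors 16 were measured and 15 of these were higher, led in level by *Onecut2* at 104 CPM and *Creb3l3* at 99.0 CPM. Of 32 genes of the secretory pathway 21 were higher, with a median log2 ratio of 1.12, among them the endoplasmic reticulum chaperones *Hsp90b1* (1757 against 273 CPM) and *Hspa5* (1404 against 230 CPM). Of 20 hepatoblast and biliary genes 12 were measured, of which 10 were higher and 1 lower. *H19* was at 3578 CPM and *Dlk1* at 2679 CPM, whereas *Spp1*, *Krt19*, *Krt7*, *Cldn6* and *Epcam* were at 0. Of 32 genes in the list of metabolic enzymes 18 were measured and 17 of these were higher. The highest in level was *Mt1* at 2682 CPM, a metallothionein gene of that list and not an enzyme gene. *Ugt1a1*, *Tdo2*, *G6pc*, *Aldh1a1* and *Cyp2c29* were at 0. Receptors and iron genes were mixed, with 4 of 12 measured genes higher and 2 lower. The ferritin gene *Fth1* was at 2376 CPM against 5901 CPM, and *Hamp*, *Hamp2* and *Bmp6* were at 0 in hepatocyte-like cells. None of 21 proliferation genes was higher and 8 were lower.

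Markers of other cell types differed by list. All 14 erythroid markers were lower, among them *Hbb-bs* at 6799 CPM against 58884 CPM in the other cells, and the embryonic globin gene *Hbb-y* had the lowest ratio of all genes (log2 ratio -5.14). Of the granule myeloid markers 10 of 12 were lower, of the macrophage markers 5 of 12, of the early progenitor markers 5 of 9 and of the megakaryocyte markers 3 of 12. The 12 endothelial markers were called neither higher nor lower, the only measured mesothelial marker, *Podxl*, was lower, and the other 6 mesothelial markers were at 0. The 10 CPM added to both sides in part set these counts, since no marker below 10 CPM in the other cells could be called lower. Such markers included the endothelial *Kdr* (3.41 CPM) and *Lyve1* (7.86 CPM) and the macrophage marker *Mrc1* (3.64 CPM). Markers above 100 CPM outside the erythroid list were *Pf4*, a platelet chemokine (286 CPM against 358 CPM in the other cells), *Reln* (181 against 3.22 CPM) and *Vcam1* (130 against 8.01 CPM). *Reln* belongs to the 2 of 10 stellate and mesenchymal markers that were higher, *Vcam1* was the only such macrophage marker and *Hlf* (38.4 against 2.78 CPM) the only such early progenitor marker. A single cell held 607 of the 656 *Pf4* UMIs, and without it the level was 21.5 CPM. The stellate and mesenchymal markers summed to 284 CPM over the pooled hepatocyte-like cells and 47.9 CPM over the other cells, with medians over cells of 210 and 0 CPM. Medians were also above those of the other cells, which were 0, for the macrophage (161 CPM), early progenitor (67.1 CPM) and endothelial markers (59.8 CPM). Pooled over cells, the sums of these lists were instead lower in hepatocyte-like cells. They were 192 against 220 CPM (macrophage), 97.3 against 398 CPM (early progenitor) and 131 against 150.5 CPM (endothelial). The part of depth (12969 against 5721 UMIs in the median cell) in the medians was not tested. The part of cells with these markers in the levels of the 10 genes was not tested either. Among the macrophage markers *Vcam1* was the highest, with a mean over cells of 133 CPM. On that scale *C1qa* was at 2.56 CPM and *Cd68* at 0.760 CPM.

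The 10 genes were also counted in cells that are not hepatocyte-like, at a low level. In the 7052 other cells they summed to 469 CPM (463–476), or 3.002 UMIs per cell (2.96–3.04), and 88.3% of the cells had at least 1 such UMI. *Afp* was at 141 CPM (137–144), *Alb* at 88.3 CPM (85.6–91.1), *Apoa2* at 58.8 CPM (56.6–61.1), *Rbp4* at 53.4 CPM (51.3–55.6) and *Apob* at 3.93 CPM (3.37–4.56). In droplet data, RNA free in the suspension is counted in every cell type, and its part in these levels was not tested.

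The level in CPM was higher in the later erythroid stages, whereas UMIs per cell differed less. From S0-low through S0-medium, S1, S2 and S3 to S4/S5, the summed level was 292, 298, 310, 469, 627 and 836 CPM. The steps from S0-low to S0-medium (ratio 1.02, 0.968–1.07) and on to S1 (1.04, 0.981–1.10) lay within counting error, and those to S2 (1.51, 1.43–1.60), S3 (1.34, 1.27–1.40) and S4/S5 (1.33, 1.27–1.41) exceeded it. In UMIs per cell the same stages had 2.13, 2.87, 3.06, 3.004, 3.02 and 3.52. On that scale the steps differed: that from S0-low to S0-medium was the largest (1.35, 1.28–1.42). The steps to S1 (1.06, 1.004–1.13) and S4/S5 (1.16, 1.10–1.23) exceeded counting error. Those to S2 (0.983, 0.930–1.04) and S3 (1.01, 0.957–1.06) lay within it. Both steps use S2, which held cells just under the 1% limit, at 0.845% and 0.959%. The set took 1.72% and 1.64% of the UMIs of these cells. The former cell alone held 264 of the 3890 UMIs of the set in S2. The steps to S2 and S3 without these cells were not computed on either scale, so their size may depend on them. The S0-low level was 0.350 times that of S4/S5 in CPM (0.332–0.368), 0.606 times in UMIs per cell, and 0.108 times when globin UMIs were left out of the denominator. Depth and globin differed between the stages. In the same order, the median depth was 6017, 10281, 10116, 6021, 4522.5 and 3949 UMIs, highest in S0-medium. The median globin share was 0.811%, 0.954%, 1.98%, 12.7%, 45.3% and 67.6%. The part of depth and globin in the steps was not tested.

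**Figure D4:**
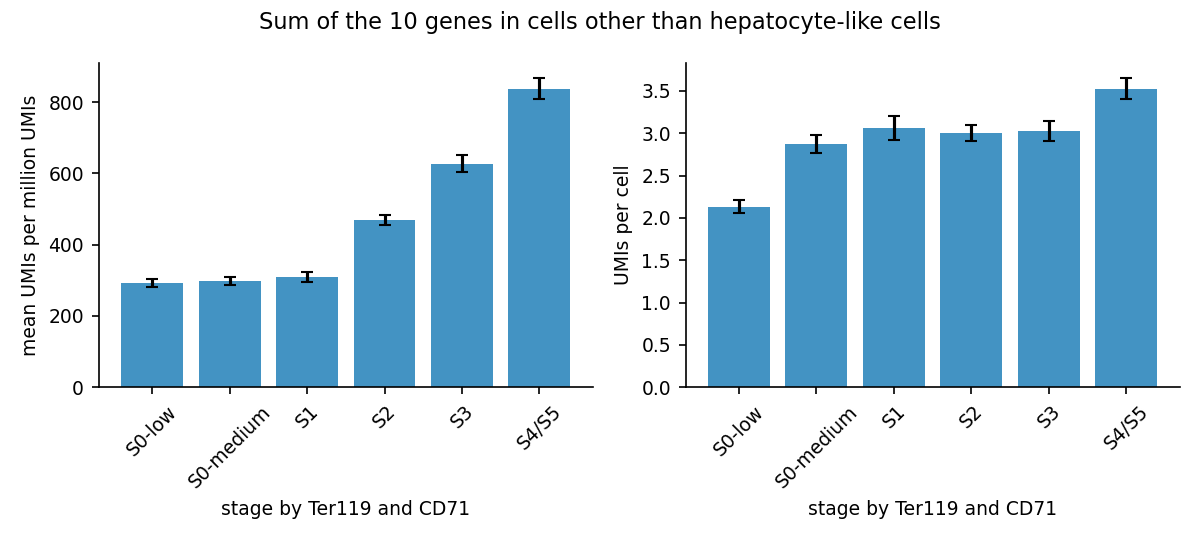
Sum of the 10 genes in cells other than hepatocyte-like cells by stage (horizontal axis), as mean CPM (left) and as UMIs per cell (right). Error bars are 95% Poisson intervals of the summed UMIs, scaled to the mean on the left. The left bars go from 292 to 836, and the right bars lie between 2.13 and 3.52.

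Each of the 10 genes was higher in S4/S5 than in S0-low in mean CPM. The ratio ran from 2.06 for *Trf* (1.69–2.51) to 3.57 for *Ttr* (2.96–4.30), and was 2.88 for *Afp* (2.63–3.16) and 2.99 for *Alb* (2.66–3.36). In UMIs per cell the ratios were smaller, from 1.20 for *Trf* (0.984–1.46) to 2.03 for *Ttr* (1.69–2.45), and those of *Trf* and *Fgb* (1.42, 0.958–2.11) lay within counting error. Over 8830 genes with at least 50 UMIs in these stages, 3.07% were at least 2-fold higher in S4/S5 and 57% at least 2-fold lower, with a median log2 ratio of -1.14. Of the 10 genes, 5 were at least 2-fold higher on that scale (*Apoa2*, *Afp*, *Alb*, *Ttr* and *Apoa1*) and 0 lower, with a median of 1.09. That scale is log2(pooled CPM + 10), which shrinks the ratio of genes at a low level. In pooled CPM *Apob* was at 8.04 against 2.40, *Ahsg* at 13.7 against 4.61 and *Fgb* at 13.5 against 5.47. *Rbp4* was at 85.8 against 38.6 and *Trf* at 46.9 against 22.6. The split of the 10 genes therefore depends in part on their level. The count comes from 1 library with no replicate.

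The make-up of these UMIs was close to that in the hepatocyte-like cells for *Afp* and *Alb*. *Afp* took 30.3% of the UMIs of the 10 genes in hepatocyte-like cells and 29.1% to 31.7% over the 6 stages. *Alb* took 18.5%, against 18.5% to 19.6%. Over all other cells, the shares of *Afp* (ratio 0.990, 0.964–1.02), *Alb* (1.02, 0.988–1.05) and *Fgb* (0.908, 0.817–1.01) lay within counting error of those in hepatocyte-like cells. The remaining 7 did not. *Apoa1* (0.765, 0.728–0.804), *Rbp4* (0.810, 0.777–0.844) and *Ttr* (0.875, 0.831–0.921) took a smaller share in the other cells, and *Trf* (1.56, 1.48–1.65), *Apoa2* (1.35, 1.30–1.41), *Apob* (1.34, 1.14–1.57) and *Ahsg* (1.27, 1.14–1.42) a larger one. *Afp*, *Apoa1* and *Rbp4* also set the limit between the cells. With the cells chosen by the 77 other secreted protein genes, the ratios were 0.765 for *Apoa1*, 0.827 for *Rbp4*, 0.866 for *Ttr* and 1.52 for *Trf*. With a limit of 5%, which counts cells between 1% and 5% as other cells, *Rbp4* turned to 1.05 and *Ahsg* to 0.927. *Afp* (1.04, 1.02–1.05) and *Alb* (0.904, 0.887–0.922) then also lay outside counting error, as did 9 of the 10 genes in all.

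**Figure D5:**
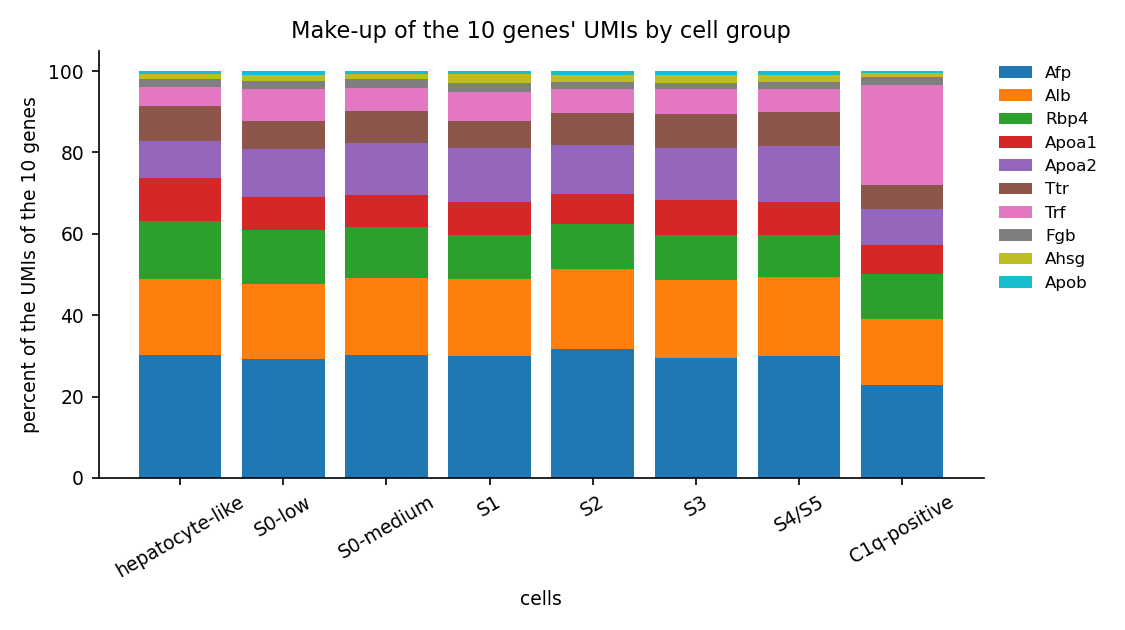
Share of each gene (colours) in the UMIs of the 10 genes (vertical axis, %) in hepatocyte-like cells, in other cells of the 6 stages and in C1q-positive cells. The *Afp* and *Alb* segments keep about the same height from hepatocyte-like cells to S4/S5, and *Trf* widens to 24.6% in C1q-positive cells.

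*Trf* took a larger share in cells with CD11b leading than in the stages. After the values were seen, 88 other cells with at least 10 UMIs of *C1qa*, *C1qb* and *C1qc* were taken as C1q-positive; 77 of them were lineage-high cells with CD11b leading. They carried the macrophage markers *Marco* (1465 against 3.27 CPM in the remaining cells), *Cd5l* (1113 against 2.07 CPM) and *Timd4* (530 against 0.749 CPM). *Trf* was at 252 CPM in these cells and at 30.04 CPM in the remaining 6964, a ratio of 8.37 (7.06–9.88). For the other 9 genes the ratio ran from 0.976 for *Ahsg* (0.356–2.15) to 2.45 for *Fgb* (1.29–4.24), and was 1.37 for *Afp* (1.16–1.62) and 1.34 for *Alb* (1.09–1.63). With globin UMIs out of the denominator, *Trf* remained higher, at 4.802, whereas *Afp* (0.749), *Alb* (0.728) and *Apoa2* (0.597) turned lower. Of the genes that were higher in CPM, only *Trf* and *Fgb* (1.35) kept their direction on that scale. In UMIs per cell each of the 10 genes was instead higher in C1q-positive cells. The ratio was then 9.28 for *Trf*, 1.87 for *Afp* (1.58–2.21), 2.11 for *Alb* (1.72–2.56) and 1.75 for *Apoa2* (1.32–2.28). Those of *Apob* (1.38, 0.282–4.102) and *Ahsg* (1.39, 0.507–3.06) lay within counting error. The *Fgb* value rested on 13 UMIs, and no interval was computed for 1.35. One C1q-positive cell held 177 of the 643 UMIs of the 10 genes in this group. It held 5 of the 13 *Fgb* UMIs, 56 of 147 of *Afp*, 44 of 104 of *Alb* and 8 of 158 of *Trf*. Ratios without this cell were not computed. In the 77 cells with CD11b leading, *Trf* gave 138 of 345 UMIs of the 10 genes (40.0%), against 106 of 955 (11.1%, 9.18–13.3) in the 361 CD11b-leading cells that were not C1q-positive and 5.72% to 7.87% over the 6 stages. At least 2 *Trf* UMIs were found in 29 of the 77 and in 17 of the 361. *Apoe*, a lipid carrier gene of liver and macrophages, was at a mean of 3598 CPM in the C1q-positive cells, 177 CPM in the remaining cells and 6101 CPM in hepatocyte-like cells. *Hpx*, by contrast, was at 1.66, 4.69 and 757 CPM. Without the C1q-positive cells, *Trf* still took a larger share in the other cells than in hepatocyte-like cells (1.44, 1.36–1.53).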

How the data were processed

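The cDNA counts and the antibody counts of 1 pool of cells were analysed. The authors deposited raw UMI counts per gene and cell, made with Cell Ranger on mm10, and raw antibody counts per cell, without their later filters. Per the labels, Seurat was also used; versions are not given in those labels. Cells with 300 to 5000 genes, at most 9% mitochondrial UMIs and no doublet call (Scrublet method in scanpy 1.11.5, expected rate 6%) were kept. Stages were rebuilt by k-means of centered log ratios of Ter119 and CD71, in cells whose summed counts of 5 lineage antibodies were at most the median plus 2 scaled median absolute deviations. Levels of the set, and of all genes in the comparison of C1q-positive cells, are means of CPM. Those of the other listed genes are pooled CPM, unless a mean or median is named. Log2 ratios used pooled CPM plus a pseudocount of 10, and genes with at least 50 UMIs. Shares of cells with a UMI are unthinned unless they are said to be thinned, to 2000 UMIs per cell. Intervals are Poisson, Clopper-Pearson or conditional binomial and cover counting error only. For mean CPM and its ratios they were taken from summed UMIs, so they may be too narrow. Direction and interval of pooled folds were checked on simulated counts with no spread beyond counting error and with folds far smaller than those of the set. Ratios of mean CPM were not simulated. Genes were named by rule: the set, the 3 highest of each list, other markers above 100 CPM, the 15 highest and 10 lowest ratios, and the 5 closest unlisted genes; only some of these are printed. The genes and lists were chosen with earlier results of these data known. Python 3.11.15, numpy 2.4.6 and scipy 1.17.1 were used.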

Additional observations from a re-analysis of the deposited data

How the results depend on the processing

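No paired analysis was possible because the series holds 1 library of each kind from the same cells. With no replicates, values are set against counting intervals, so small shifts count as changes. A limit of 5% put many cells between 1% and 5% among the other cells: 121 hepatocyte-like cells remained, the summed level of the 10 genes was 120005 CPM there and 1159 CPM in the other cells, and the S0-low over S4/S5 ratio turned to 2.44. There the smallest ratio of a gene's level was 81.7, and the share ratios of *Rbp4* (1.05) and *Ahsg* (0.927) changed direction. Those of *Afp* (1.04) and *Alb* (0.904) left counting error of 1. A limit of 0.5% gave 99617 and 462 CPM, and 2% gave 103838 and 491 CPM with a stage ratio of 0.421. Choice by the list without members gave 97158 CPM and 0.374. All deposited cells gave 355 cells, 96517 and 509 CPM and 0.449; without the mitochondrial limit alone (chosen after seeing the data) there were 340 cells, 98046 and 504 CPM. Keeping doublet calls gave 100047 CPM, and the lowest Ter119 class 160 cells and 104035 CPM. Summed UMIs gave 96975 and 406 CPM; UMIs per cell were 1158 and 3.002, with a stage ratio of 0.606. Without globin in the denominator the levels were 102581 and 878 CPM, the stage ratio 0.108 and the smallest gene ratio 82.1. Without cells at 0.2% to 1% the other cells had 455 CPM. Other antibody classes gave stage ratios of 0.365 and 0.363. Of 40 recomputed ratios of gene level 27 moved beyond their counting interval; their direction is set by the choice of cells. Of 50 share ratios 6 moved and 2 reversed. The 10 of them computed without globin could not move, because a share of the 10 genes' UMIs does not use that denominator.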
